A study of Mus musculus with 20 samples.

Results

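The genes described here are 10 genes of the cytotoxic lymphocyte program, measured by RNA sequencing in microglia isolated from mouse brain. They were taken by symbol (Gzma, Gzmb, Prf1, Nkg7, Klrb1c, Klrd1, Klrk1, Ncr1, Cd3e and Il2rb), and all 10 were found among the 24062 genes of the expression table. The list was chosen with earlier results of these data known, so counts over it are descriptions. Natural killer cells and cytotoxic T cells kill target cells by releasing granules at the point of contact, where perforin opens the membrane and granzymes, which are serine proteases, enter and start cell death. Natural killer cells decide whether to release these granules by adding up signals from activating and inhibitory surface receptors, while T cells read antigen through a receptor that signals through the CD3 chains. In the healthy brain such lymphocytes are rare and are found mainly in the meninges, the choroid plexus and the blood.

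The study compared male mThy1-α-synuclein mice with wildtype mice of the same age. The transgenic mice carry human wild-type α-synuclein under the Thy-1 promoter, which is active in neurons, inserted on the X chromosome and hemizygous in males, on the B6D2F1/J hybrid background of their wildtype littermates. RNA was sequenced from 6 mThy1-Asyn and 4 wildtype mice at 7 months and from 5 mThy1-Asyn and 5 wildtype mice at 10 months, each library from the brain of 1 mouse. The study began with more mice, and those that gave too little RNA were not sequenced. The methods describe selection with CD11b magnetic beads after removal of myelin and red blood cells, whereas the sample labels name IBA1 beads, and the cells were not counted. CD11b is also carried by mouse natural killer cells, neutrophils and monocytes.

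Between 33404096 and 77806399 reads per mouse were counted on genes (median 49006014). Values are normalized counts, which are reads divided by a size factor for each mouse that was set within an age, so levels at 7 and 10 months were not compared with each other. P2ry12, a purinergic receptor gene that marks microglia, was far above the members, with 203983 to 384337 normalized counts in the 20 mice, and all 15 listed microglia markers were tested at both ages. Of these, 1 was higher in mThy1-Asyn mice at 7 months (Gpr34) and 3 at 10 months (Sall1, Itgam and Cx3cr1), against 2.23% and 3.88% of all genes. Only 3 of the 15 estimates at 7 months and 4 at 10 months lay below 0. An unadjusted limma p below 0.05 was reached by 5 markers at each age. At 7 and 10 months edgeR called 1 and 2 markers, DESeq2 3 and 3, and voom 3 and 3. Per kilobase of exon, Gzma was the most abundant member in wildtype mice at 7 months with 1309 ± 360.0 normalized counts per kb (SD, n = 4), followed by Klrd1 with 425 ± 53.1. Gzmb (190.1 ± 66.1), Nkg7 (173 ± 46.4) and Ncr1 (131 ± 59.9) followed in that order on the same scale and differed from each other by less than their SDs. Prf1 (79.6 ± 17.6) and Klrb1c (74.5 ± 22.8) came next and differed by less than either SD, as did Klrb1c and Klrk1 (62.3 ± 14.7), and Il2rb stood lower at 44.9 ± 16.0. P2ry12 stood at 117350 ± 9348 per kb in the same mice, and Cd3e at 2.67 ± 2.69.

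The sequences just before the start sites are shown for 4 of the 5 genes called lower at both ages. Klrb1c, also called at both ages, has a window that is not printed. RefSeq (GRCm38.p6) gave a window for 8 of the 10 genes, and Klrd1 and Il2rb had no entry. Prf1 codes for perforin (chr10:61297586-61297835, plus strand), Gzma for granzyme A (chr13:113100982-113101231, minus strand), Gzmb for granzyme B (chr14:56262335-56262584, minus strand) and Ncr1 for the activating receptor NKp46 (chr7:4337474-4337723, plus strand). Each window holds the 250 bases before the start site, written 5′ to 3′ on the strand of the gene, and capitals mark matches on either strand to TGTGGT (core of Runx factor motifs), GGTGTG (T-box factors such as T-bet and Eomes) or GGAAGT (Ets factors), of which the first and second can share letters.
Prf1: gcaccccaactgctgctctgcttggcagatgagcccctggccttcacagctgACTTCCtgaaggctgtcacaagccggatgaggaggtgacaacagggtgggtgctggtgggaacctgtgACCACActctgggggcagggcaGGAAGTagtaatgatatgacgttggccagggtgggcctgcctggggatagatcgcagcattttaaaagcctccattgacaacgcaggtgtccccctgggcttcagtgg
Gzma: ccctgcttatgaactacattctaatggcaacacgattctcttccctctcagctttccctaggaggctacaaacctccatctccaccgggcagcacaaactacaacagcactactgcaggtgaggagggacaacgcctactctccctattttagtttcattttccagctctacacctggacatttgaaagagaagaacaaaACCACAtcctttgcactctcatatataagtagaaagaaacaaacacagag
Gzmb: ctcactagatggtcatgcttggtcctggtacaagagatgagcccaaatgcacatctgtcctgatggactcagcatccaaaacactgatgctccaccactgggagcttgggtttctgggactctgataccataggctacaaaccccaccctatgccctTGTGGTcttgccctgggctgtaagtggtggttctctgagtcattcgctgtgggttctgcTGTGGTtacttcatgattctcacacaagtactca
Ncr1: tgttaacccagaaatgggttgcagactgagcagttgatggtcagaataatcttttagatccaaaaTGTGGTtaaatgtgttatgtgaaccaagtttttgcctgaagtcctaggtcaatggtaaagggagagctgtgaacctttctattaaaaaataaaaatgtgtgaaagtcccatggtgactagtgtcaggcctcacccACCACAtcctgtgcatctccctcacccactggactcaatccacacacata
The Runx letters were present in 7 of the 8 windows searched, Cd3e being the exception, against 14.0% of the 32851 RefSeq windows of this length. Ets letters were present in 3 of the 8 (Prf1, Klrb1c and Cd3e) against 19.7% of all windows, and T-box letters in 1 (Nkg7) against 16.3%. In Gzma and Ncr1 the Runx letters nearest to the start began 50 bases before it in both genes. These matches are descriptions of letters in short windows, and binding was not measured.

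At both ages most of these genes were lower in mThy1-Asyn mice. Of the 10 genes, 9 passed the filter on low values at each age (at least 10 normalized counts in at least 4 mice at 7 months or 5 at 10 months), and Cd3e did not. At 7 months 7 of the 9 fell and none rose at an adjusted p below 0.05 (limma on log2 of the normalized count + 1, Benjamini-Hochberg over all genes tested), against 2.7% of the 13887 genes tested that were lower, 2.23% that were higher and 4.93% in all. At 10 months 6 of the 9 fell and none rose, against 3.79% of 13627 genes that were lower, 3.88% that were higher and 7.67% in all. At an unadjusted p below 0.05 the members numbered 7 and 8 of 9, against 21.3% and 23.5% of all genes. Every mThy1-Asyn mouse lay below every wildtype mouse in 6 of the 9 genes at 7 months and in 3 at 10 months, against 3.97% and 3.49% of all genes. The median log2 fold change of the tested members was -1.40 at 7 months and -1.25 at 10 months, while the median of all tested genes was 0.0009 and -0.0026. In RNA from a whole fraction, fewer cytotoxic cells and less of these RNAs per cell cannot be told apart.

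**Figure D1:**
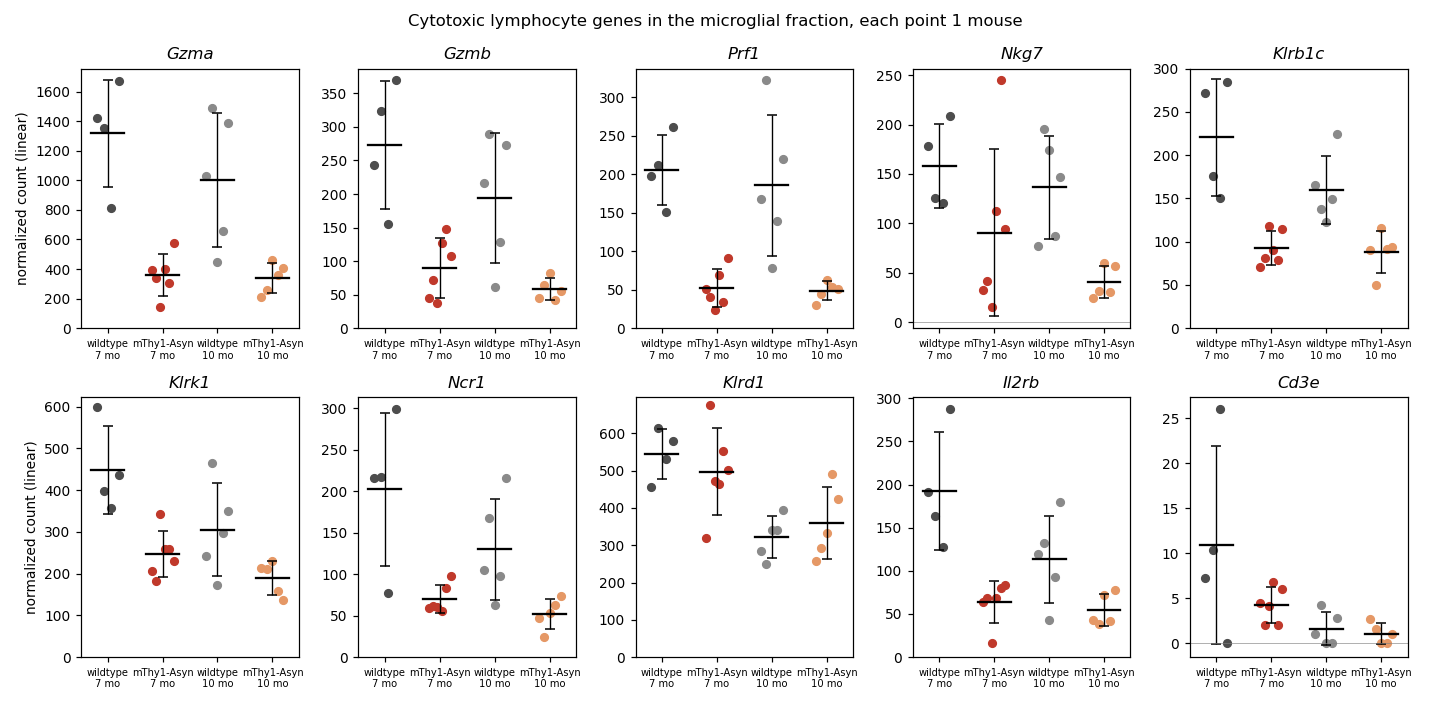
Normalized counts (linear axis) of the 10 genes in each of 4 groups, with 1 point per mouse, a bar at the mean and whiskers of 1 SD. For Prf1 and Klrb1c every mThy1-Asyn mouse lies below every wildtype mouse at both ages, whereas the groups overlap for Klrd1, and Cd3e does not exceed 26.0 in any mouse.

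**Figure D2:**
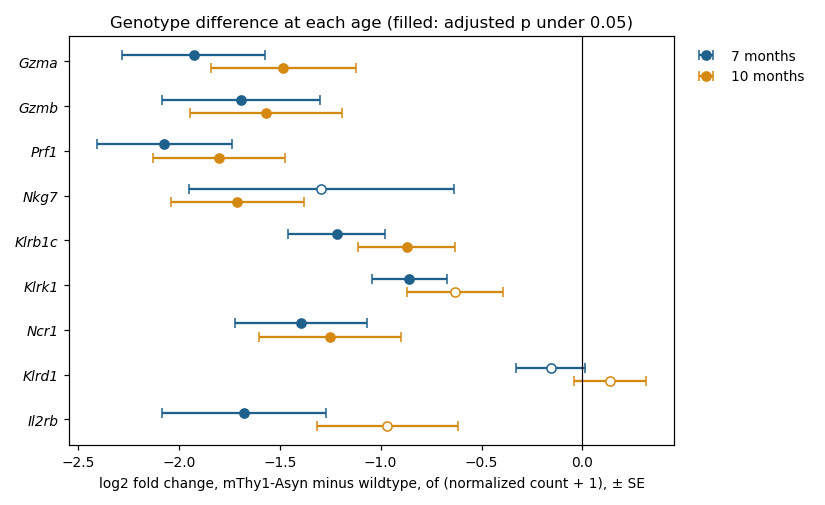
Log2 fold change (mThy1-Asyn minus wildtype) ± SE of the 9 tested genes at 7 and 10 months, with filled points where the adjusted p was below 0.05. All points but that of Klrd1 at 10 months lie left of 0, with Prf1 farthest at both ages (-2.07 and -1.80).

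Gzma, on chr13:113093825-113100981, codes for granzyme A, a granule protease of natural killer cells and cytotoxic T cells. At 7 months the wildtype mice had 1423, 1357, 814 and 1674 normalized counts, and the 6 mThy1-Asyn mice ranged from 146 to 577 with a median of 367. At 10 months the wildtype mice had 1029, 1489, 449.5, 655 and 1386, and the mThy1-Asyn mice 210.0, 258, 458, 359 and 408. The genotypes did not overlap at 7 months, and at 10 months wildtype replicate 3 alone lay below the highest mThy1-Asyn mouse. The log2 fold change was -1.93 ± 0.35 (SE) at 7 months (limma, adjusted p = 0.0151) and -1.48 ± 0.36 at 10 months (adjusted p = 0.0386).

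Gzmb, on chr14:56258838-56262260, codes for granzyme B, the protease that cleaves caspases in the target cell. The 7-month wildtype mice had 243, 324, 155 and 370.3 normalized counts, and the mThy1-Asyn mice ranged from 38.1 to 148 with a median of 90.2. The 10-month wildtype mice had 217, 289.9, 61.3, 129 and 273, and the mThy1-Asyn mice 45.4, 63.8, 82.4, 41.9 and 56.2. Again only wildtype replicate 3 at 10 months lay within the mThy1-Asyn range. Gzmb fell by 1.69 ± 0.39 on the log2 scale at 7 months (limma, adjusted p = 0.0266) and by 1.57 ± 0.38 at 10 months (adjusted p = 0.0260).

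Prf1, on chr10:61297833-61304680, codes for perforin, without which granzymes do not reach the cytosol of the target. At 7 months the wildtype mice had 198, 212, 151 and 262 normalized counts, and the mThy1-Asyn mice ranged from 23.8 to 90.9 with a median of 46.2. At 10 months the wildtype mice had 167, 322, 78.2, 139.8 and 219, and the mThy1-Asyn mice 30.2, 44.7, 63.1, 53.6 and 51.2. The genotypes were apart at both ages. Prf1 had the lowest fold change among the members, at -2.07 ± 0.33 at 7 months (limma, adjusted p = 0.00293) and -1.80 ± 0.33 at 10 months (adjusted p = 0.00663). Mean levels in wildtype mice were 3.97 and 3.82 times those of mThy1-Asyn mice.

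Nkg7, on chr7:43437073-43438249, codes for a membrane protein of cytotoxic granules that is needed for their release. In 7-month animals the wildtype values were 178, 126, 120.5 and 209 normalized counts, and the mThy1-Asyn mice ranged from 15.7 to 245 with a median of 68.2. Of these 6 mice, 5 lay below every wildtype mouse and replicate 5 lay above every one. The log2 fold change of -1.29 ± 0.66 did not pass the test (limma, adjusted p = 0.291, 95% interval -2.75 to 0.16). At 10 months the wildtype mice had 77.3, 196, 174, 87.4 and 147 and the mThy1-Asyn mice 24.9, 31.9, 59.9, 30.2 and 57.2, without overlap. There Nkg7 fell by 1.71 ± 0.33 (adjusted p = 0.00862).

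Ncr1, on chr7:4337724-4345164, codes for NKp46, an activating receptor whose expression is largely restricted to natural killer cells and other innate lymphoid cells. Wildtype mice of 7 months had 216, 217, 76.8 and 299 normalized counts, and the mThy1-Asyn mice ranged from 56.1 to 98.2 with a median of 60.9. In 10-month animals the wildtype values were 105, 167, 62.2, 98.1 and 216, and the mThy1-Asyn mice 47.2, 24.7, 53.5, 62.3 and 73.2. At each age the wildtype mouse numbered 3 lay within the mThy1-Asyn range and all other wildtype mice lay above it. Ncr1 fell by 1.40 ± 0.33 at 7 months (limma, adjusted p = 0.0228) and by 1.25 ± 0.35 at 10 months (adjusted p = 0.0437).

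Klrb1c, on chr6:128778485-128789215, codes for the antigen NK1.1, the classical surface marker of mouse natural killer cells. At 7 months the wildtype mice had 272, 176, 150.0 and 284 normalized counts, and the mThy1-Asyn mice ranged from 70.6 to 118 with a median of 86.3. Wildtype mice of 10 months had 165, 138, 123, 149 and 225, and the mThy1-Asyn mice 89.9, 49.5, 116, 91.6 and 94.3. There was no overlap at either age. The log2 fold change was -1.22 ± 0.24 at 7 months (limma, adjusted p = 0.00829) and -0.87 ± 0.24 at 10 months (adjusted p = 0.0414). The related genes Klrb1a and Klrb1b, which could share reads with it, were not called at either age (log2 fold changes 0.15 and 0.08 at 7 months and -0.22 and -0.16 at 10 months). A further relative, Klrb1f, was not called either but had lower estimates, at -0.73 ± 0.56 (limma, adjusted p = 0.488) and -0.74 ± 0.33 (adjusted p = 0.196, unadjusted p = 0.0434). The annotated gene Gm44511 overlaps Klrb1c and Klrb1b on the same strand, and how reads in the overlap were assigned is not given in the sources used here.

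Klrk1, on chr6:129610323-129623864, codes for NKG2D, an activating receptor for stress-induced ligands. The wildtype values at 7 months were 599, 398, 358 and 435 normalized counts, and the mThy1-Asyn mice ranged from 183 to 343 with a median of 245. The wildtype values at 10 months were 241, 464, 172, 297 and 351, and the mThy1-Asyn mice 213, 209.8, 230.1, 158 and 137. The genotypes were apart at 7 months and overlapped at 10 months through wildtype replicate 3. Klrk1 fell by 0.86 ± 0.19 at 7 months (limma, adjusted p = 0.0151), and the log2 fold change of -0.63 ± 0.24 at 10 months did not pass the test (adjusted p = 0.124, 95% interval -1.14 to -0.12).

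Klrd1, on chr6:129591782-129598775 and so the neighbour of Klrk1, codes for CD94, which pairs with NKG2 proteins to form inhibitory or activating receptors. It was the member whose level moved least with genotype. At 7 months the wildtype mice had 457, 614, 530.2 and 579 normalized counts, and the mThy1-Asyn mice ranged from 318 to 675 with a median of 487. At 10 months the wildtype mice had 284, 249, 341, 341 and 393, and the mThy1-Asyn mice 259, 292, 332, 490.0 and 424. The groups overlapped at both ages. The log2 fold change was -0.16 at 7 months with a 95% interval of -0.52 to 0.20 (limma, adjusted p = 0.630), and 0.14 at 10 months with an interval of -0.25 to 0.52 (adjusted p = 0.694).

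Il2rb, on chr15:78479256-78495271, codes for the β chain that the receptors for IL-2 and IL-15 share, through which IL-15 keeps natural killer cells alive. Among 7-month animals the wildtype mice had 191, 163, 128 and 287 normalized counts, and the mThy1-Asyn mice ranged from 16.3 to 83.6 with a median of 68.6. At 10 months the wildtype mice had 119.7, 132, 43.4, 92.7 and 179.8, and the mThy1-Asyn mice 42.7, 38.3, 71.7, 41.9 and 78.3. The genotypes were apart at 7 months, and at 10 months wildtype replicate 3 lay among the mThy1-Asyn mice. Il2rb fell by 1.68 ± 0.41 at 7 months (limma, adjusted p = 0.0297), and at 10 months the log2 fold change of -0.97 ± 0.35 did not pass (adjusted p = 0.109, 95% interval -1.71 to -0.22).

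Cd3e, on chr9:44998740-45009627, codes for the ε chain of the CD3 complex and marks T cells. It was near the floor of the assay. The 7-month wildtype mice had 7.19, 10.4, 26.0 and 0 normalized counts and the mThy1-Asyn mice 2.03 to 6.80 (median 4.28), and at 10 months no mouse of either genotype exceeded 4.22. No more than 22 reads lay behind any of these values. The mouse with the most Cd3e, wildtype replicate 3 at 7 months, was also the lowest of its group in 8 of the 9 tested members, and the wildtype mouse with no Cd3e read, replicate 4, was the highest of its group in 7 of the 9. Without the filter on low values, the log2 fold change of Cd3e was -0.53 ± 0.77 at 7 months (limma, adjusted p = 0.760) and -0.22 ± 0.59 at 10 months (adjusted p = 0.867).

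Gzma and Ncr1 were also set against Cd3e within each mouse, as log2 of (value + 1) over (Cd3e + 1). The ratio of Gzma to Cd3e was lower in mThy1-Asyn mice at 7 months, with a difference of group means of -1.40 (two-sided exact permutation test, p = 0.257, adjusted over 4 ratios p = 0.343), and the difference was -1.26 at 10 months (exact permutation p = 0.0635, adjusted p = 0.254). For Ncr1 the differences were -0.87 (exact permutation p = 0.552, adjusted p = 0.552) and -1.03 (exact permutation p = 0.175, adjusted p = 0.343). None passed the test with 1 added, where the smallest p the design allows is 0.00952 at 7 months and 0.00794 at 10 months. With 5 added in place of 1, both ratios at 10 months were below an exact permutation p of 0.05 before adjustment. No 10-month mouse exceeded 4.22 in Cd3e, so with 5 added these ratios follow mainly Gzma or Ncr1 itself. They cannot show a change relative to T cell RNA. In the 7-month wildtype mice the Gzma ratio alone spread from 4.92 to 10.7, and leaving out wildtype replicate 4 turned the Ncr1 difference at 7 months to 0.31. Without 7-month wildtype replicate 3 the Gzma difference was -2.26, and without 10-month mThy1-Asyn replicate 3 or wildtype replicate 2 it was -1.60 and -1.42, each below an exact permutation p of 0.05 before adjustment (p = 0.0238, 0.0317 and 0.0476).

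The mice of the 2 ages were different animals with controls of their own. Of the 9 genes tested at both ages, 5 (Gzma, Gzmb, Prf1, Ncr1 and Klrb1c) fell at both, whereas 0.185% of the 13484 genes tested at both ages did, that is 25 genes. With voom and quality weights Gzma (adjusted p = 0.0749), Gzmb (0.102) and Ncr1 (0.0513) lost the call at 10 months, which left Prf1 and Klrb1c at both ages, and with limma and no filter Klrb1c (0.0538) and Ncr1 (0.0573) lost it. Klrk1 and Il2rb were called at 7 months alone and Nkg7 at 10 months alone, but the difference between the ages was itself tested and none of the 9 members passed (limma interaction, against 6.6% of the 14030 genes tested). No member had an unadjusted interaction p below 0.05, against 22.2% of all genes, and edgeR, DESeq2 and voom also called 0. The interaction estimates, the effect at 10 months minus that at 7 months, ran from -0.42 for Nkg7 (95% interval -1.97 to 1.14) to 0.71 for Il2rb (-0.46 to 1.89), so that differences of more than a log2 unit were within the intervals of both. Both genotypes of an age were carried through isolation side by side.

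The calls depended on single mice, more so at 10 months. Prf1 passed at both ages and Nkg7 at 10 months whichever mouse was left out. At 7 months the count of members called was 1 without wildtype replicate 1 (Prf1, with Gzma at an adjusted p of 0.0564 and Klrb1c at 0.0506 in limma) and 4 without wildtype replicate 2 or replicate 4, when Gzmb, Ncr1 and Il2rb were not called. At 10 months it was 2 without mThy1-Asyn replicate 1 or without wildtype replicate 1, 2 or 5 (Prf1 and Nkg7 in each case), 3 without mThy1-Asyn replicate 2 or 5, 4 without mThy1-Asyn replicate 3, and 8 without wildtype replicate 3. In that last case Klrk1 (adjusted p = 0.0400) and Il2rb (0.0254) also passed. No log2 fold change of a called member changed sign in any of these fits, and the Gzma estimates stayed between -2.14 and -1.69 at 7 months and between -1.74 and -1.30 at 10 months.

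Within groups, Gzma, Gzmb, Prf1, Ncr1 and Il2rb rose and fell together from mouse to mouse, and the other tested members less so. After subtracting each group's mean from the log2 values, Gzma and Prf1 had a Pearson r of 0.94 over the 20 mice, Gzma and Il2rb 0.89, and Gzmb and Il2rb 0.79. Each pair of values comes from the same library and shares its size factor. Against the mean of the other tested members, r was 0.74 to 0.84 for Gzma, Gzmb, Prf1, Ncr1 and Il2rb. For Nkg7 it was 0.48, for Klrb1c 0.46, for Klrk1 0.23 and for Klrd1 0.09. The median r was 0.45 over the 28 pairs that leave out Klrd1 (range 0.02 to 0.94) and 0.10 over the 8 pairs that include it (range -0.39 to 0.27). The lowest was that between Klrd1 and its neighbour Klrk1. Wildtype replicate 3 was the lowest of its group in 7 of the 9 tested members at 10 months, and mThy1-Asyn replicate 3 at 7 months in 5 of the 9, although it was the highest of its group in Klrb1c and Klrk1.

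**Figure D3:**
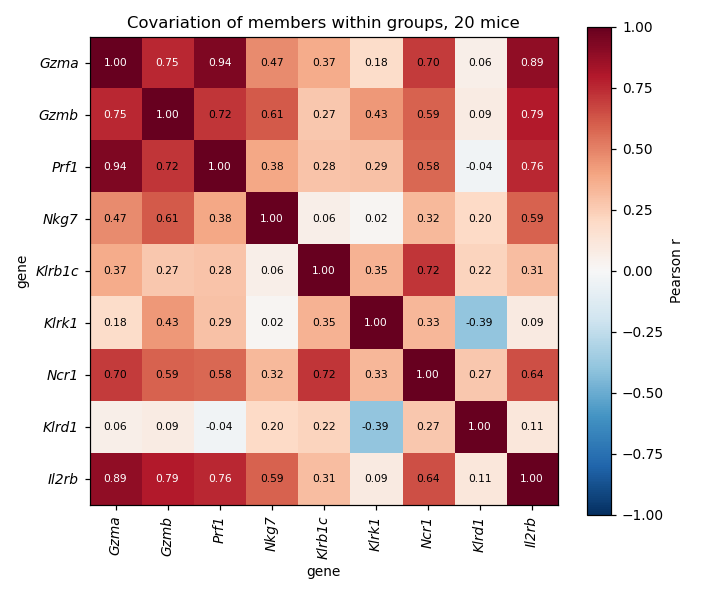
Pearson r between the 9 tested genes over 20 mice, computed on log2(normalized count + 1) after removing each group's mean. The effector genes Gzma, Gzmb and Prf1 with Il2rb form a block of r from 0.72 to 0.94, Klrd1 has no r above 0.27, and Klrk1 none above 0.43.

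Outside the members, the 10 genes most like them were found by correlating each of 14021 other genes with the mean standardized residual of the 9 tested members over the 20 mice. In order they were Klra3, Sytl3, Abca4, Klre1, Klra9, Snord99, Eomes, Klri2, Rad9b and Styk1, with r from 0.90 to 0.74. Of these, 5 (Klra3, Klre1, Klra9, Eomes and Klri2) stand on the list of other natural killer genes, and Eomes codes for a T-box factor of that lineage. Likeness within groups did not carry over to genotype in each of them: Abca4 had log2 fold changes of 0.58 and 1.90 at 7 and 10 months (limma, adjusted p = 0.799 and 0.100) and Rad9b of -0.03 and 0.45 (adjusted p = 0.950 and 0.247).

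The list of other natural killer and cytotoxic genes showed the same direction with fewer calls. At 7 months 3 of its 30 tested genes fell (against 2.7% of all genes) and none rose, with 26 of 30 estimates below 0 and a median log2 fold change of -1.06. An unadjusted p below 0.05 was reached by 16 of the 30, and edgeR called 3, DESeq2 9 and voom 10. At 10 months 2 of 28 fell (against 3.79%) and none rose, with 23 of 28 below 0, while 11 reached an unadjusted p below 0.05 and edgeR called 3, DESeq2 6 and voom 1. The T-box factor gene Tbx21 (T-bet), which drives granzyme and perforin expression, averaged 17.7 normalized counts in mThy1-Asyn and 73.5 in wildtype mice at 7 months, with a log2 fold change of -1.98 ± 0.41 (limma, adjusted p = 0.0122), and of -1.05 ± 0.49 at 10 months (adjusted p = 0.205). Klrg1, an inhibitory receptor of mature natural killer cells, fell at both ages (-2.15 ± 0.49 with adjusted p = 0.0198, and -1.40 ± 0.38 with adjusted p = 0.0395). Klra9, of the Ly49 receptor family whose members share sequence, fell at 7 months (-1.54 ± 0.36, adjusted p = 0.0236), and Klre1, another lectin-like receptor, at 10 months (-1.92 ± 0.49, adjusted p = 0.0299).

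**Figure D4:**
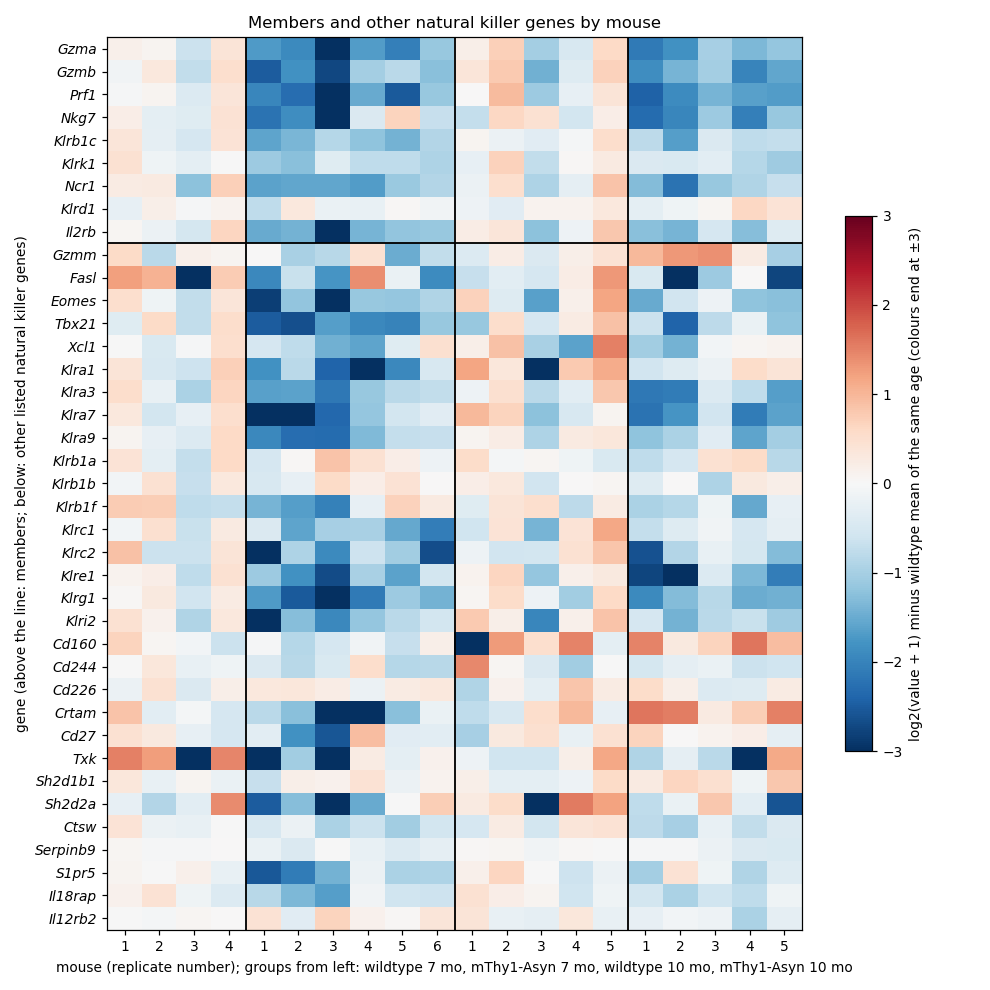
Log2(normalized count + 1) minus the wildtype mean of the same age, for the 9 tested members (above the line) and the other tested natural killer genes (below it), with 1 column per mouse and colours ending at ±3. Prf1 is below the wildtype mean in every mThy1-Asyn column, the Klrd1 row is pale throughout, and wildtype mouse 3 at 10 months is below its group mean in the rows of Gzma, Gzmb, Prf1, Ncr1 and Il2rb.

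T cell genes were mixed in their calls, while most estimates lay below 0. These were 13 of 18 at 7 months (median log2 fold change -0.76) and 10 of 15 at 10 months (median -0.33). An unadjusted limma p below 0.05 was reached by 7 and 5 genes at 7 and 10 months. Of the other tools, edgeR called 3 and 2, DESeq2 5 and 2, and voom 3 and 2. The chains Cd3g, Cd8a and Cd8b1 were, like Cd3e, too low to be tested at either age. The listed T cell receptor constant genes were absent from the expression table. At 7 months 2 of the 18 tested T cell genes fell (Cd2, an adhesion receptor shared with natural killer cells, and Lef1) and 1 rose (Icos), against 2.7% and 2.23% of all genes. At 10 months 1 of 15 fell and 1 rose (Il7r), against 3.79% and 3.88% of all genes. Il7r averaged 1866 normalized counts in mThy1-Asyn and 1089 in wildtype mice at that age, far above Cd3e. Which cells its RNA came from was not tested. The gene that fell was Cd3d, coding for the δ chain of CD3, with 22.4 to 76.3 normalized counts in mThy1-Asyn and 149 to 359 in wildtype mice (log2 fold change -2.33 ± 0.32, limma, adjusted p = 0.00143), far above the level of Cd3e in the same mice. Cd3d at 7 months had a log2 fold change of -0.95 ± 0.56 (adjusted p = 0.354).

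Within each age, the partners of these receptors on other cells, and the shared cytokine pathway, gave no call in limma. Of the ligand estimates, 3 of 11 lay below 0 at 7 months and 10 of 11 at 10 months (median log2 fold changes 0.16 and -0.14). The ligand gene Clec2d passed the test of the difference between ages (-0.62 ± 0.17, limma interaction, adjusted p = 0.0314). Of the 11 tested ligands and class I genes read by natural killer receptors, such as H2-K1, B2m and Ulbp1, 0 passed at 7 months (2 at an unadjusted p below 0.05, and 0 with edgeR, DESeq2 and voom) and 0 at 10 months (5 unadjusted, 0 with edgeR, 2 with DESeq2 and 1 with voom). Of the 11 tested genes of IL-2, IL-15 and related signaling, such as Il15, Il15ra and Il2rg, 0 passed at 7 months (1 unadjusted, 0 with the other tools) and 0 at 10 months (4 unadjusted, 2 with DESeq2, 0 with edgeR and voom). Il15 had log2 fold changes of 0.04 ± 0.16 and -0.29 ± 0.12. Among the chemokine and migration genes (16 tested at 7 months and 15 at 10 months), Ccl5, a chemokine made by natural killer and T cells, fell at both ages, from means of 486 to 213 normalized counts at 7 months and 398 to 172 at 10 months (-1.17 ± 0.23, limma adjusted p = 0.00815, and -1.12 ± 0.22, adjusted p = 0.00959). Cxcl12 also fell and Cxcl10 rose at 7 months, and Cxcr4 fell and Cx3cr1 rose at 10 months. In the list of granule machinery, Serpinb9b fell and Ctsc, the protease that activates granzymes but is also a lysosomal enzyme of microglia, rose at 7 months (1 each of 13), and at 10 months Stx11 and Srgn fell (2 of 13). Of all genes 2.7% were lower and 2.23% higher at 7 months, and 3.79% and 3.88% at 10 months. These shares apply to every list in this paragraph. Of 9 adaptor genes 0 passed in limma at 7 months (3 unadjusted, 1 with DESeq2, 0 with edgeR and voom) and Syk fell at 10 months, while in the adhesion list Vcam1 rose at both ages (of 12). The rise of Vcam1 was smaller at 10 months (0.43 ± 0.11) than at 7 months (1.64 ± 0.21). That difference passed the test (limma interaction, -1.21 ± 0.24, adjusted p = 0.00695).

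Markers of other cells moved with genotype too, and the calls fell on partly different lists at each age. At 7 months 6 of 15 neuron markers, 4 of 10 astrocyte, 3 of 10 oligodendrocyte and 2 of 10 endothelial markers were lower and 1 astrocyte marker was higher. Of all genes 2.7% were lower and 2.23% higher at that age. In limma 0 of 14 neutrophil, 0 of 12 monocyte and 0 of 10 border macrophage markers passed at that age (0, 2 and 1 unadjusted, and 0 of each with edgeR, DESeq2 and voom). Of these estimates 13, 12 and 6 lay below 0, with median log2 fold changes of -0.41, -0.46 and -0.05. The neutrophil sums at 7 months lay between 75102 and 504766 in mThy1-Asyn and between 106832 and 335016 in wildtype mice. The summed neuron markers lay between 777 and 1197 normalized counts in mThy1-Asyn and between 1499.8 and 2483 in wildtype mice at 7 months, and the oligodendrocyte sums between 7878 and 10264 and between 12848 and 18336. At 10 months 4 of 14 neutrophil, 5 of 12 monocyte and 6 of 10 border macrophage markers were lower, as were 1 of 13 neuron and 1 of 10 endothelial markers, while 1 of 10 astrocyte markers was higher and 0 of 8 oligodendrocyte markers passed (0 unadjusted and with every tool). Among all genes 3.79% were lower and 3.88% higher. For astrocyte markers edgeR and voom called 0 and DESeq2 2, and for endothelial markers edgeR called 0 and DESeq2 and voom 1 each. The border macrophage sums lay between 32565 and 40501 in mThy1-Asyn and between 43074 and 55123 in wildtype mice, and the neutrophil sums between 101909 and 240299 and between 199613 and 461811. No gene of these 7 lists was at 0 in every mouse. In limma 0 of 9 and 0 of 7 B cell markers passed at 7 and 10 months (0 and 1 unadjusted), as did 0 of 3 red cell and platelet markers at each age (0 unadjusted), and edgeR, DESeq2 and voom also called 0. Of 10 dendritic cell markers 0 passed at 7 months (2 unadjusted, 0 with the other tools), while 2 fell and 1 rose at 10 months. The part of these cells in the members' result was not tested.

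Of the neutrophil markers, S100a8 was set beside the members mouse by mouse. It was lowest among the 7-month wildtype mice in replicate 4 (19253 normalized counts against 61592 to 71125 in the others), the mouse with the highest Gzma, and highest among the 10-month wildtype mice in replicate 3 (92266), the mouse with the lowest Gzma. Over the 20 mice, after removal of group means and within the same libraries, the r with S100a8 was 0.24 for Gzma. That sign is opposite to the pattern in the wildtype mice just named. The r was 0.74 for Nkg7, 0.41 for Gzmb, 0.34 for Il2rb and between -0.06 and 0.16 for the remaining tested members. The mThy1-Asyn mouse with the outlying Nkg7 at 7 months, replicate 5, also had the most S100a8 of all mice (105141). The reverse was seen in 7-month wildtype replicate 4, which had the least S100a8 of its group and the most Nkg7 (209).

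**Figure D5:**
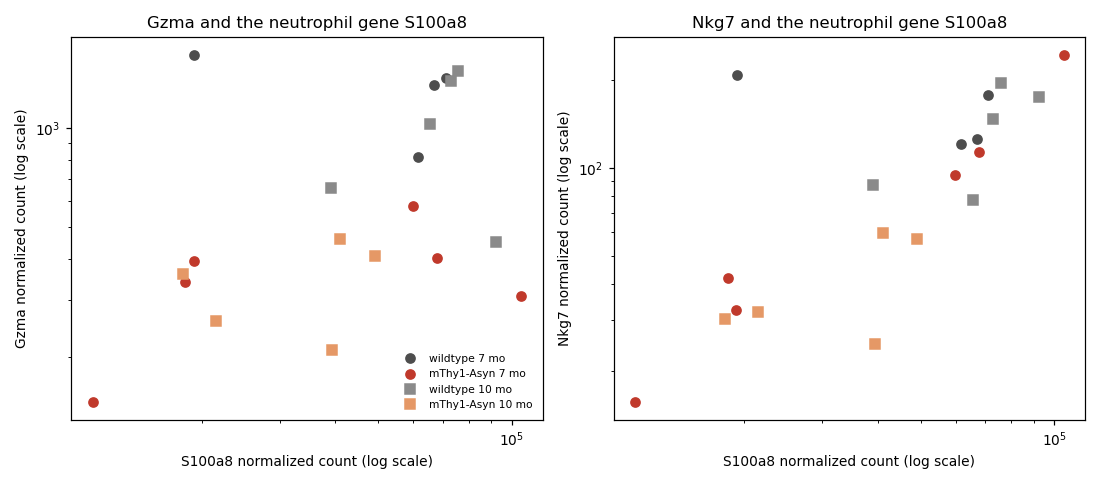
Normalized counts of Gzma (left) and Nkg7 (right) against S100a8 in each of the 20 mice, all axes on a log scale, circles for 7 months and squares for 10 months. At 7 months every wildtype mouse lies above every mThy1-Asyn mouse in Gzma, with S100a8 of 19253 in 1 wildtype mouse and 61592 to 71125 in the others. Nkg7 rises with S100a8 among the mThy1-Asyn mice, up to 245 in the mouse with 105141 of S100a8. Among the 7-month wildtype mice the highest Nkg7 (209) is in the mouse with 19253 of S100a8, the lowest of that group.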

How the data were processed

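RNA was measured in 20 mice, 4 to 6 per group, and groups were taken from the sample titles. Per the labels and methods, reads went through Trim Galore 0.6.7, HISAT2 2.2.1 (mm10) and featureCounts, and the authors normalized the gene counts with DESeq2 1.44.0. The deposited values are a signal in units of size-factor-normalized reads, each age having been scaled by itself. Values below 1000 reads were whole multiples of a single step per mouse (100% within 0.01 reads), so reads were recovered by division. The strand and multimapping settings are not given in the sources used here.

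Because the values were normalized, the main test was limma 3.58.1 (R 4.3.3) with trend and robust estimation on log2(value + 1), fitted to all genes with at least 10 normalized counts in at least 4 mice (7 months) or 5 mice (10 months), with Benjamini-Hochberg adjustment and a cutoff of 0.05. The interaction was fitted to all 20 mice. Alternatives were pseudocounts of 0.5 and 5, no filter and a filter of 50, edgeR 4.0.16 and DESeq2 1.42.0 on the recovered reads, voom with quality weights, all 20 mice in 1 fit, the replicate number as a block, and leaving out each mouse. The fit was tested on simulated data. Ratios were tested by exact permutation with scipy 1.17.1. Positions are from GENCODE (mm10) and sequences from RefSeq (GRCm38.p6). Levels per kilobase used the union of a gene's exons.

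The genes and the gene lists were chosen with earlier results of these data known, so counts over them are descriptions. Genes outside the members were named by a rule: up to 4 called genes of a list with the largest change at an age, the microglia markers, the 10 genes most like the members, and paralogs. Ulbp1, H2-K1, B2m, Clec2d, Il15, Il15ra, Il2rg, S100a8, Cd3g, Cd8a and Cd8b1 are named outside it. Some genes that the rule would name are not reported here. Columns of per-sample values that were not used numbered 0.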

Additional observations from a re-analysis of the deposited data

Results flagged for a closer look

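A value of Il2rb stood apart from its group. Il2rb in mThy1-Asyn replicate 3 at 7 months had 16.3 normalized counts, while the other 5 mice of the group had between 63.9 and 83.6, a gap of 0.71 of the group's range. This mouse was also the lowest of its group in Gzma, Gzmb, Prf1 and Nkg7, and the highest in Klrb1c and Klrk1. All 40 sets of values (10 genes in 4 groups) were looked at in this way, and chance alone marks about 1 in 20. No member differed between the ages in its genotype effect by the interaction test.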

How the results depend on the processing

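The members called numbered 7 at 7 months in each of the other analyses of all mice. At 10 months they numbered 6 with either pseudocount, the stricter filter and edgeR, 8 with DESeq2, 5 in the fit of all 20 mice, 4 without a filter and 3 with voom and quality weights. All genes called numbered 684 at 7 months and 1045 at 10 months, and with DESeq2 1158 and 1694. The count of members in the interaction was 0 in every analysis. Leaving out a mouse gave 1 to 7 members and 282 to 858 genes at 7 months, 2 to 8 members and 497 to 1235 genes at 10 months, and 0 members (0 to 0) and 623 to 1089 genes in the interaction. The lowest gene counts were without wildtype replicate 1 at 7 months and wildtype replicate 2 at 10 months. The causes were not tested.

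Equal replicate numbers did not pair the mice: deviations from group means correlated between -0.13 and 0.10 for equal numbers. With the number as a replicate block, 414 genes were called at 7 months, 916 at 10 months and 481 in the interaction, with 7, 5 and 0 members. Nkg7 gained and Klrk1 lost its call at 7 months, and Gzma lost it at 10 months. The ratios to Cd3e in pairs differed by -1.61 and -1.26 for Gzma and -1.11 and -1.03 for Ncr1 at 7 and 10 months, none past the cutoff.

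With a pseudocount of 5 the ratios to Cd3e at 10 months differed by -1.37 for Gzma and -1.08 for Ncr1 (exact permutation p = 0.0159 for each, unadjusted). The log2 fold changes of Gzma and Ncr1 themselves were -1.48 and -1.25 at that age, and Cd3e was too low to weigh against them. Leaving out a mouse moved the Gzma ratio between -2.26 and -0.33 at 7 months and between -1.60 and -0.85 at 10 months, and the Ncr1 ratio between -1.92 and 0.31 and between -1.33 and -0.66. Among member estimates, signs turned only in the interaction: Gzmb to -0.14 with edgeR and TMM, to -0.13 with edgeR and RLE and with DESeq2, and between -0.24 and 0.37 on leaving out a mouse, Ncr1 between -0.094 and 0.56, and Nkg7 to 0.22 with the block. Cd3e rested on 0 to 22 reads per mouse, which limits each ratio.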
